A study of Mus musculus with 6 samples.

Results

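Transcripts of 10 Fc receptor and Fc receptor-like genes (Fcgr1, Fcgr2b, Fcgr3, Fcgr4, Fcer1g, Fcgrt, Fcmr, Fcrla, Fcrl1 and Fcrl5) were compared in spleens of NOD.B10 and BL/10 females. The genes were listed by name as a receptor family, with earlier results of these data known. All 10 were found among the 47729 genes of the count table. NOD.B10 (NOD.B10Sn-H2b/J) is used to model primary Sjögren's syndrome in mice and has the NOD background and the H2b haplotype, and BL/10 (C57BL/10, given as C57BL10/SnJ in the labels) is the healthy control strain, which carries H2b as well. The strains differ throughout the rest of the genome, so no single locus sets them apart. There were 3 libraries of whole-spleen RNA per strain, none with a transgene or a treatment, with between 15662712 and 18298451 counted reads. They are described as biological replicates, and the labels do not say whether a library is a single animal, so p-values measure the spread between these libraries.

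The labels did not settle the strain of the libraries. The strain was taken from the column names and the descriptions, which give the same strain for each library (for BL/10 replicate 3 they differ in the ending of the library's name), whereas in each of the 6 libraries the title and the strain field give the other strain, and every direction below would be reversed under them. The labels give an age of 26 weeks for 4 libraries and of 36 weeks for BL/10 replicates 2 and 3, so age and strain could not be fully separated, although the strains are described as matched in age. BL/10 replicate 1, the BL/10 library labelled 26 weeks, also held the most pancreas acinar transcripts, with 12173 CPM summed over 10 marker genes against 107 to 1846 CPM in the other BL/10 libraries and 21.9 to 31.0 CPM in NOD.B10. CPM, the usual unit of reads relative to library size, was computed here after scaling by the TMM method of edgeR.

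Fc receptors bind the constant part of antibodies and couple antibody recognition to cells. Activating IgG receptors (FcγRI, FcγRIII and FcγRIV in the mouse) signal through the shared FcRγ chain, which carries an ITAM, and are found on macrophages, monocytes, neutrophils and, for FcγRIII, NK cells. FcγRIIB carries an ITIM and is the inhibitory receptor of B cells and myeloid cells. FcRn protects IgG from breakdown and carries it across cells, the IgM receptor Fcmr and the Fc receptor-like proteins are mainly found in B cells, and the spleen is rich in all of these cell types.

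Of the 4 genes of the activating side of the family, 3 were lower in NOD.B10 spleens. Transcripts of the FcRγ chain (Fcer1g), FcγRI (Fcgr1) and FcγRIII (Fcgr3) fell, whereas FcγRIV (Fcgr4), the inhibitory receptor (Fcgr2b) and FcRn (Fcgrt) did not pass the test. All 10 genes passed the filter on low counts, and 3 of them were lower and 0 higher in NOD.B10 by the quasi-likelihood test of edgeR with a threshold of 0.05 on the adjusted p. Over all 15330 genes tested, 8.22% were lower and 9.11% were higher (17.3% in either direction). At an unadjusted p under 0.05, 5 of the 10 genes passed, the others being Fcrl1 and Fcrl5, both with higher values in NOD.B10, and DESeq2 called 3 genes lower and 1 (Fcrl1) higher, against 9.06% and 8.53% of all genes it tested. The libraries of the strains did not overlap for 4 of the 10 genes, 3 of them lower and 1 (Fcrl1) higher, and 38.0% of all genes tested showed this (17.5% lower and 20.5% higher).

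**Figure D1:**
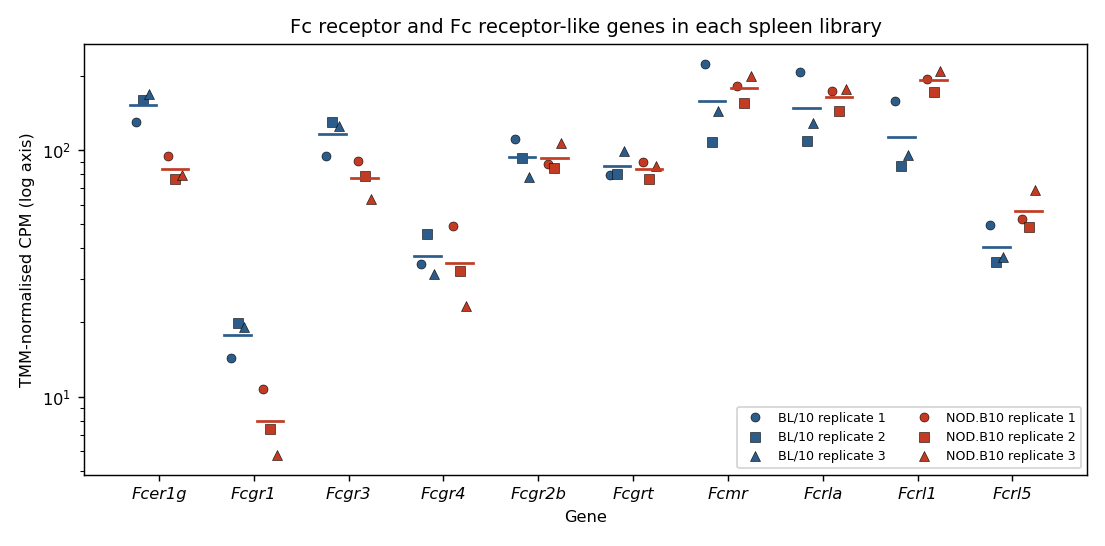
Level of each of the 10 genes in each spleen library, as TMM-normalised CPM on a log axis. Blue symbols stand for BL/10 and red for NOD.B10, the symbol shape gives the replicate, and bars are means of 3 libraries. The red and blue symbols are apart for Fcer1g, Fcgr1, Fcgr3 and Fcrl1 and overlap for the other 6 genes.

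Fcer1g encodes the FcRγ chain, the signaling partner of the activating IgG receptors and of the high-affinity IgE receptor. The gene (ENSMUSG00000058715, minus strand) lies on chromosome 1 from 171229572 to 171234365 of GRCm38. Its level was 94.98, 76.8 and 79.1 CPM in NOD.B10 replicates 1, 2 and 3, and 130, 160 and 168 CPM in the BL/10 libraries. The strains did not overlap, and the lowest BL/10 value was that of replicate 1. Mean levels were 83.6 ± 9.92 against 153 ± 20.3 CPM (SD, n = 3 each), 1.83-fold higher in BL/10, and the log2 fold change was -0.87 with a standard error of 0.13 (adjusted p = 0.00446 in edgeR). With each library left out in turn, the log2 fold change lay between -0.99 and -0.80 and stayed past the threshold.

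Fcgr1 encodes FcγRI (CD64), the high-affinity IgG receptor of monocytes and macrophages. The gene (ENSMUSG00000015947, minus strand) lies on chromosome 3 from 96282909 to 96293969, away from the other Fcγ receptor genes. It was the least abundant of the 10 genes, with 180, 120 and 103 counts in NOD.B10 against 264, 297 and 339 in BL/10, or 10.8, 7.37 and 5.79 CPM against 14.3, 19.9 and 19.3 CPM. The strains did not overlap, and the highest NOD.B10 library was closest to BL/10 replicate 1. It had the largest log2 fold change of the 10 genes at -1.16 with a standard error of 0.24 (adjusted p = 0.0151 in edgeR), or 2.24-fold higher in BL/10. The adjusted p was 0.0518 without BL/10 replicate 2 and 0.0511 without BL/10 replicate 3.

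Fcgr3 encodes FcγRIII (CD16), the low-affinity activating receptor of macrophages, neutrophils and NK cells. The gene (ENSMUSG00000059498, minus strand) lies on chromosome 1 from 171051174 to 171064935. Its level was 90.5, 78.4 and 63.3 CPM in NOD.B10 and 94.3, 130 and 125 CPM in BL/10 replicates 1, 2 and 3. The strains were apart by a narrow margin, since BL/10 replicate 1 lay just above the highest NOD.B10 library. The log2 fold change, -0.59 with a standard error of 0.17 (adjusted p = 0.0469 in edgeR), was close to the threshold, and in the fits that each left out a library it was past it in 1 of 6, without BL/10 replicate 1 (-0.73, adjusted p = 0.0123).

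Fcgr4 encodes FcγRIV, an activating receptor for IgG2a and IgG2b that also needs the FcRγ chain. The gene (ENSMUSG00000059089, plus strand) lies on chromosome 1 from 171018920 to 171029761, between Fcgr2b and Fcgr3. Its level was 49.2, 32.5 and 23.4 CPM in NOD.B10 and 34.4, 45.7 and 31.6 CPM in BL/10. The libraries of the strains were intermixed, with NOD.B10 holding both the highest and the lowest value. The log2 fold change was -0.09 with a 95% interval from -0.70 to 0.52 (adjusted p = 0.845 in edgeR). That interval leaves out the estimate for Fcer1g (-0.87) but overlaps the interval of Fcer1g, from -1.18 to -0.57. Ratios to Fcer1g in the same library were chosen after the values were seen. Fcgr4 was at 0.518, 0.423 and 0.296 counts per Fcer1g count in NOD.B10 and 0.265, 0.285 and 0.188 in BL/10 (exact permutation p = 0.1, the smallest that 3 against 3 libraries can give). The ratios of Fcgr1 (0.0732 to 0.113 against 0.110 to 0.124) and of Fcgr3 (0.80 to 1.02 against 0.726 to 0.81) to Fcer1g overlapped between strains (exact permutation p = 0.2 each).

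Fcgr2b encodes FcγRIIB, which lowers signaling from the B cell receptor and from activating Fc receptors. The gene (ENSMUSG00000026656, minus strand) lies on chromosome 1 from 170958617 to 170976547. Its level was 87.8, 84.9 and 107 CPM in NOD.B10 and 111, 92.7 and 78.0 CPM in BL/10. The libraries overlapped throughout and the means were 93.2 ± 12.0 CPM and 93.9 ± 16.5 CPM (SD, n = 3 each). The log2 fold change was -0.01 with a 95% interval from -0.35 to 0.33 (adjusted p = 0.97 in edgeR).

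Counts of an activating receptor per Fcgr2b count in the same library do not depend on the scaling of the libraries, and these ratios were chosen after the values were seen. Fcer1g stood at 1.08, 0.904 and 0.739 counts per Fcgr2b count in NOD.B10 and at 1.17, 1.73 and 2.16 in BL/10. Fcgr1 stood at 0.123, 0.0868 and 0.0541 counts per Fcgr2b count in NOD.B10 and at 0.129, 0.215 and 0.247 in BL/10. Both ratios were lower in all 3 NOD.B10 libraries (two-sided exact permutation p = 0.1 each, again the smallest possible). The ratio of Fcgr3 to Fcgr2b overlapped between strains, at 0.592 to 1.03 in NOD.B10 and 0.85 to 1.61 in BL/10 (exact permutation p = 0.3), and so did that of Fcgr4 (exact permutation p = 0.8).

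Fcgr2b and Fcgr3 are close relatives, and the counting command kept the defaults of featureCounts, which leave out reads that map to several places or to several genes. Of the 50-base windows (the read length) of Fcgr3 transcripts, 9.58% also occurred in Fcgr2b, and 3.08% of the windows of Fcgr2b occurred in a gene of the family. As far as shared sequence goes, levels of Fcgr2b and Fcgr3 are therefore less certain than those of the other genes. None of the windows of the other 8 genes occurred in another gene, and exons of Fcgr2b shared 2.68% of their bases with a gene of the same table, Gm38204. Strand was not used in the counting. Reads of both strains were mapped to the reference of another strain. Whether differences from that reference lowered the counts of any of these genes in NOD.B10, Fcer1g and Fcgr1 included, was not tested.

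Upstream sequences are shown for Fcer1g, Fcgr1 and Fcgr3, which were lower together, for Fcgr4, the activating receptor that did not pass the test, and for Fcrl1, the B cell gene whose libraries did not overlap. They are the 250 bases before the RefSeq start of transcription in GRCm38.p6, 5′ to 3′ on the strand of the gene, at chr1:171234350-171234599 (minus strand, Fcer1g), chr3:96293970-96294219 (minus, Fcgr1), chr1:171059404-171059653 (minus, the first of the starts listed for Fcgr3), chr1:171018676-171018925 (plus, Fcgr4) and chr3:87376137-87376386 (plus, Fcrl1). All 10 genes had an entry. Capitals mark matches on either strand to GAGGAA, a core bound by the myeloid and B cell factor PU.1, to TTCNNNGAA, the core of sites for STAT proteins, to ATGCAAAT, the octamer of B cell promoters, and to the core of interferon-stimulated response elements (GAAA repeated after any 2 bases).
Fcer1g: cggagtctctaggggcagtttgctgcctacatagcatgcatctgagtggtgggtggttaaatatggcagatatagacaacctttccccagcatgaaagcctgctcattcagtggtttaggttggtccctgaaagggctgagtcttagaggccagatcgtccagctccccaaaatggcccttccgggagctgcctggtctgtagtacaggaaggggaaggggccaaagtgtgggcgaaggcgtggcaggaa
Fcgr1: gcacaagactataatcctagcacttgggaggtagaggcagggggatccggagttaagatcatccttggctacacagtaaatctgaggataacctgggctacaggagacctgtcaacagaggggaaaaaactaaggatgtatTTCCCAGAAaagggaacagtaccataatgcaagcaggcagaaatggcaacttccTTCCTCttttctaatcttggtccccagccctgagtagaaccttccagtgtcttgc
Fcgr3: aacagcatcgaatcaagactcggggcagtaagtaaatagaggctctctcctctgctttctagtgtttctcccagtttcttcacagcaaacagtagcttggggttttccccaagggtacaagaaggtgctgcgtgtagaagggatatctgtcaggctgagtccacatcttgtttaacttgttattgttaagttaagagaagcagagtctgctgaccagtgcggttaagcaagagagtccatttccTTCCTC
Fcgr4: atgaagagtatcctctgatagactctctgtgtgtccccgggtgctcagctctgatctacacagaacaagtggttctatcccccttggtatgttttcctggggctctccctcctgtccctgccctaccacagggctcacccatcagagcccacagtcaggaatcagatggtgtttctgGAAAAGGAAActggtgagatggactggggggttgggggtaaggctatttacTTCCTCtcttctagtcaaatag
Fcrl1: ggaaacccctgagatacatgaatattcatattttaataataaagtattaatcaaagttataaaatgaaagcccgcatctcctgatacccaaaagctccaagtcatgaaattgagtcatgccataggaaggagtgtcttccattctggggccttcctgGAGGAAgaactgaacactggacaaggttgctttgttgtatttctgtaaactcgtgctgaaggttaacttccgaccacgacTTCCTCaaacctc
Matches to GAGGAA were found upstream of Fcgr1, Fcgr3, Fcgr4 and Fcrl1 among these 5 genes, and 23.3% of 32851 RefSeq promoters of the same length held it. The Fcgr1 sequence also held TTCNNNGAA, from 109 to 101 bases before the start, which 7.02% of the promoters held. The Fcgr4 sequence held the response element core, from 73 to 64 bases before the start and present in 2.98% of promoters. None of the 4 motifs was in the Fcer1g window, and the octamer, in 1.6% of promoters, was in none of the 5. Over all 10 genes, 6 held GAGGAA. These are matches of letters to the reference of another strain, C57BL/6J, and binding was not measured.

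**Figure D2:**
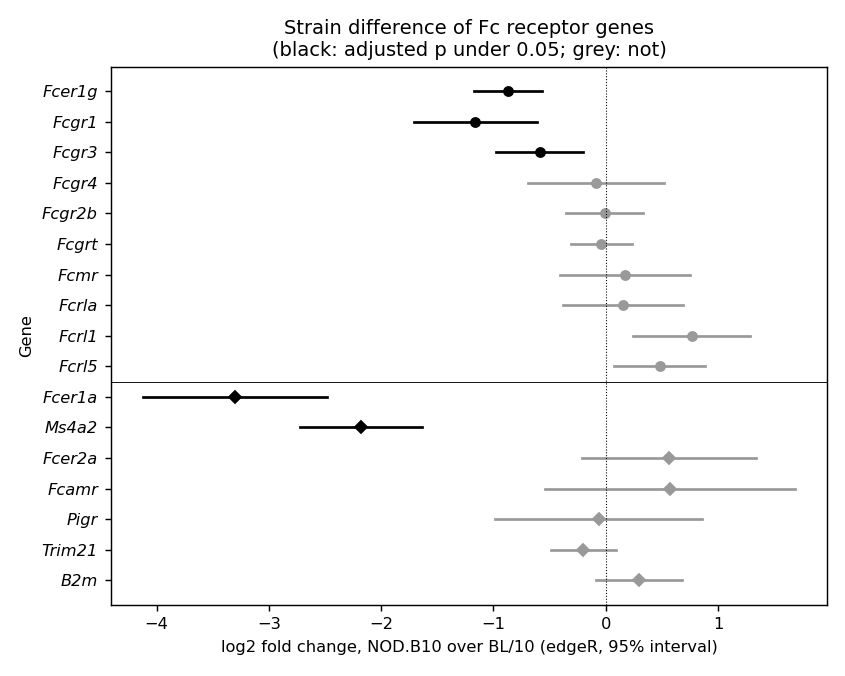
Log2 fold change of each gene, NOD.B10 over BL/10, with its 95% interval from edgeR, for the 10 genes (circles) and for 7 other Fc-binding and related genes that were tested (diamonds). Black genes had an adjusted p under 0.05, all of them on the side of lower levels in NOD.B10, and the intervals of Fcer1a and Ms4a2 lie farthest from 0.

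Markers of the cells that carry these receptors also differed between strains, where 9.11% of all genes were higher and 8.22% lower in NOD.B10. Of 14 neutrophil marker genes, 12 were lower in NOD.B10 and 0 higher, and their summed level was 2280 to 2649 CPM in NOD.B10 and 6332 to 13220 CPM in BL/10. Of 12 macrophage markers, 2 were higher and 1 lower, with summed levels of 4100 to 4752 and 3980 to 4700 CPM. Of 8 monocyte markers 0 were higher and 1 was lower, while 5 had a log2 fold change above 0 (median 0.26) and the summed level was 374 to 400 against 457 to 700 CPM. Of 8 NK cell markers 1 was higher and 3 were lower (375 to 486 against 466 to 607 CPM). The most abundant gene was Fn1 in the monocyte list and Tyrobp in the NK cell list, and these sums are no counts of cells. No marker of these lists was at 0 in all libraries of a strain. The part of neutrophils and NK cells in the lower receptor levels was not tested, and in whole spleen fewer cells of a type and less RNA per cell cannot be told apart.

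The summed macrophage markers differed little between strains, so a scale set to them leaves strain differences much as they are. Set against these markers in the same library, Fcer1g, Fcgr1 and Fcgr3 were lower in NOD.B10. Fcgr4, Fcgr2b and Fcgrt overlapped between strains on this scale. The most abundant of these markers was Vcam1, and the scale is no count of macrophages. Fcer1g stood at 19.98, 18.5 and 19.3 CPM per 1000 CPM of macrophage markers in NOD.B10 and at 32.7, 37.8 and 35.8 in BL/10. Fcgr1 stood at 2.27, 1.78 and 1.41 in NOD.B10 and at 3.60, 4.69 and 4.10 in BL/10, and Fcgr3 at 19.04, 18.9 and 15.4 and at 23.7, 30.6 and 26.6. None of the 3 genes overlapped between strains on this scale (exact permutation p = 0.1 each, the smallest possible). With the libraries scaled to these markers in edgeR, a setting added after the values were seen, the log2 fold changes were -0.88, -1.18 and -0.60 (adjusted p = 0.00109, 0.00138 and 0.0222), and 7.51% of all genes were called lower and 6.67% higher.

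**Figure D3:**
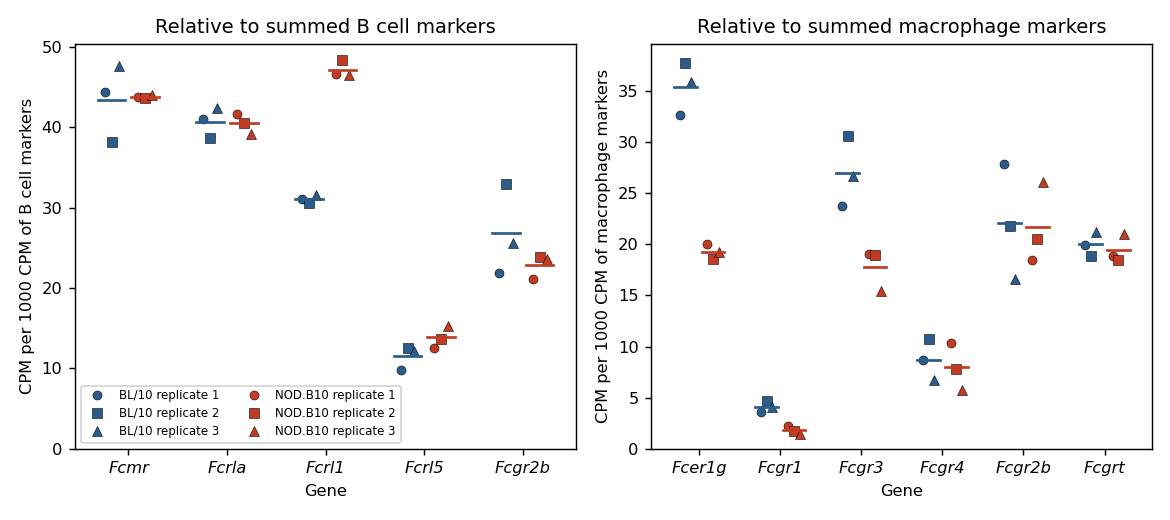
Left, 5 genes found in B cells as CPM per 1000 CPM of 10 summed B cell markers. Right, 6 genes found in myeloid cells as CPM per 1000 CPM of 12 summed macrophage markers. Symbols are libraries as in the plot of levels and bars are means of 3. Fcrl1 lies at 46.5 to 48.4 in the NOD.B10 libraries against 30.5 to 31.5 in those of BL/10, whereas Fcmr and Fcrla overlap.

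Fcgrt encodes the heavy chain of FcRn, which pairs with β2-microglobulin (B2m). The gene (ENSMUSG00000003420, minus strand) lies on chromosome 7 from 45092993 to 45103822. Its level was 89.8, 76.5 and 86.0 CPM in NOD.B10 and 79.1, 80.2 and 99.7 CPM in BL/10. The libraries overlapped, and it had the narrowest interval of the 10 genes, with a log2 fold change of -0.04 and a 95% interval from -0.31 to 0.23 (adjusted p = 0.849 in edgeR).

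The genes of the B cell side differed among themselves. Fcrl1 and Fcrl5 had higher values in NOD.B10 and did not pass the threshold, and Fcmr and Fcrla had means of 179 ± 22.2 against 159 ± 59.9 CPM and of 165 ± 18.1 against 149 ± 52.6 CPM (SD, n = 3 each), with strains that overlapped. Fcrl1 encodes a surface protein of B cells with ITAM-like motifs. The gene (ENSMUSG00000059994, plus strand) lies on chromosome 3 from 87376387 to 87402934, and its level was 194, 172 and 210 CPM in NOD.B10 and 158, 85.9 and 95.7 CPM in BL/10. The strains did not overlap, with BL/10 replicate 1 much nearer to NOD.B10 than the other BL/10 libraries were. Its log2 fold change of 0.76 (standard error 0.22) had an adjusted p of 0.0529 in edgeR and 0.00853 in DESeq2, and without BL/10 replicate 1 the log2 fold change was 1.07 (adjusted p = 0.00112 in edgeR).

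Fcrl5, a receptor of marginal zone and B-1 B cells with ITAM-like and ITIM motifs, lies 3′ of Fcrl1 on chromosome 3 from 87435773 to 87500678 (ENSMUSG00000048031, plus strand). Its level was 52.4, 48.8 and 69.1 CPM in NOD.B10 and 49.7, 35.2 and 37.0 CPM in BL/10. The overlap came from BL/10 replicate 1 alone, which exceeded NOD.B10 replicate 2. The log2 fold change was 0.48 (95% interval from 0.07 to 0.89, adjusted p = 0.0981 in edgeR), and without BL/10 replicate 1 it was 0.64 (adjusted p = 0.0229).

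Fcmr encodes the receptor for the Fc part of IgM, and Fcrla encodes an intracellular Fc receptor-like protein of B cells that binds immunoglobulins. Fcmr (ENSMUSG00000042474, plus strand) lies on chromosome 1 from 130865669 to 130880791, and Fcrla (ENSMUSG00000038421, minus strand) from 170917576 to 170927583, at the end of the Fcγ receptor genes. Fcmr was at 182, 155 and 199 CPM in NOD.B10 and at 225, 107 and 145 CPM in BL/10. Fcrla was at 174, 144 and 178 CPM in NOD.B10 and at 208, 109 and 129 CPM in BL/10. For both genes BL/10 replicate 1 was the highest of all 6 libraries and the other BL/10 libraries were the lowest, and the genes followed each other more closely than any other pair of the 10 (root mean square difference of 0.06 on the log2 scale, each gene centred on its mean). The log2 fold changes were 0.17 and 0.15 (95% intervals from -0.41 to 0.75 and from -0.38 to 0.69, adjusted p = 0.667 and 0.678 in edgeR). Without BL/10 replicate 1, Fcrla passed the threshold (0.47, adjusted p = 0.0314) and Fcmr did not (0.49, adjusted p = 0.0546), and 3 of the 10 genes were called higher, where 12.3% of all genes were.

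B cell markers moved with these values from library to library. Of 10 B cell markers 0 were called in either direction (median log2 fold change 0.21), and their summed level was 4158, 3556 and 4528 CPM in NOD.B10 and 5066, 2813 and 3037 CPM in BL/10. Per 1000 CPM of these markers, Fcrla stood at 41.7, 40.6 and 39.2 CPM in NOD.B10 and at 41.1, 38.7 and 42.4 CPM in BL/10, and Fcmr at 43.8, 43.6 and 44.0 and at 44.4, 38.2 and 47.6. Both genes thus overlapped between strains on this scale too, with ratios of the means of 0.995 and 1.01. Fcrl1 stood at 46.7, 48.4 and 46.5 CPM per 1000 CPM of B cell markers in NOD.B10 and at 31.1, 30.5 and 31.5 in BL/10. The SD of Fcrl1 within a strain was small on this scale ( 1.08 and 0.497, n = 3 each), BL/10 replicate 1 no longer stood apart, and the strains differed 1.52-fold (exact permutation p = 0.1, the smallest possible). Fcrl5 was at 12.6 to 15.2 in NOD.B10 and at 9.82 to 12.5 in BL/10, apart by a narrow margin. Fcer2a, a B cell gene outside the 10, was apart too, at 37.2 to 40.5 against 24.0 to 34.3 (exact permutation p = 0.1). Fcgr2b overlapped between strains on this scale.

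That scale was chosen after the values were seen and is no count of B cells. When the libraries were scaled to the same markers in edgeR across all genes, the log2 fold change of Fcrl1 was 0.60 and did not pass the threshold (adjusted p = 0.35), and that of Fcrla was -0.01. On this scale 0 of the 10 genes were called higher and 2 (Fcer1g and Fcgr1) lower, against 3.05% and 7.97% of all genes. Of 6 marginal zone B cell markers 2 were higher and 1 lower, with summed levels of 1031 to 1338 CPM in NOD.B10 and 781 to 959 CPM in BL/10. Their part in the values of Fcrl5 was not tested.

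Levels of different genes were compared as CPM per kilobase of exon. Exon bases were counted over all annotated transcripts of a gene, 5790 for Fcgr2b, 1736 for Fcgr3 and 1256 for Fcgr4. The place of a gene in the order therefore depends on its annotation. In NOD.B10 the order was Fcmr (103 ± 12.8, SD, n = 3), Fcer1g (95.7 ± 11.4), Fcrla (94.6 ± 10.4), Fcrl1 (54.0 ± 5.38), Fcgrt (48.4 ± 3.93), Fcgr3 (44.6 ± 7.86), Fcgr4 (27.9 ± 10.4), Fcrl5 (16.3 ± 3.11), Fcgr2b (16.1 ± 2.07) and Fcgr1 (3.08 ± 0.982). Neighbours in this order overlapped except Fcrla and Fcrl1, and Fcgr2b and Fcgr1. In BL/10, Fcer1g came first at 175 ± 23.2 CPM per kilobase, above Fcmr (91.5 ± 34.5) without overlap, and Fcgr1 was again last (6.89 ± 1.18). Fcrl1 took the sixth place in BL/10 (31.8 ± 10.9), below Fcgr3 (67.1 ± 11.1) and Fcgrt (49.7 ± 6.65).

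The other chains of the high-affinity IgE receptor were lower in NOD.B10 by more than any of the 10 genes. Fcer1a, its IgE-binding chain, had 8, 11 and 7 counts in NOD.B10 against 78, 108 and 70 in BL/10, and its log2 fold change was -3.30 with a standard error of 0.35 (adjusted p = 0.000964 in edgeR). Ms4a2, its β chain, had 14, 18 and 17 against 79, 79 and 64 counts, and its log2 fold change was -2.18 with a standard error of 0.24 (adjusted p = 0.00103). The strains were far apart for both genes, and both stayed past the threshold in all settings that tested them. Of 8 mast cell and basophil markers 6 were lower and 0 higher, with summed levels of 61.2 to 66.6 CPM in NOD.B10 and 92.4 to 127 CPM in BL/10, and their part in the lower Fcer1a, Ms4a2 and Fcer1g was not tested.

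Fcer1a and Ms4a2 were the called genes among 10 other Fc-binding and related genes, of which 7 were tested. Thus 2 were lower and 0 higher, where 8.22% and 9.11% of all genes were. The median log2 fold change was -0.06, against 0.0006 over all genes tested. Fcer2a, the low-affinity IgE receptor CD23 of B cells, was at 160, 132 and 183 CPM in NOD.B10 and at 174, 67.4 and 80.9 CPM in BL/10, and Fcamr, a receptor for IgA and IgM, was at 6.46, 5.40 and 6.80 and at 7.98, 1.81 and 2.61 CPM. BL/10 replicate 1 was near or above NOD.B10 for both, as it was for Fcmr and Fcrla, and without it both were called higher (log2 fold change 1.08 and 1.47, adjusted p = 0.00357 and 0.00512 in edgeR). B2m, the partner chain of FcRn, was at 2705 to 3215 CPM in NOD.B10 and at 1944 to 2746 CPM in BL/10 (log2 fold change 0.30, adjusted p = 0.242). Trim21, a cytosolic antibody receptor that is also a Ro autoantigen of Sjögren's syndrome, had a log2 fold change of -0.20 (adjusted p = 0.291), and Pigr, which carries IgA and IgM across epithelia, had one of -0.06 (adjusted p = 0.926). Fcrlb, Fcrl6 and Fcrls had at most 13 counts in any library and did not pass the filter on low counts. Fcrlb had 3, 3 and 1 counts in NOD.B10 against 13, 4 and 11 in BL/10, without overlap, and with no filter its log2 fold change was -1.93 (adjusted p = 0.0566 in edgeR).

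Of 30 genes of activating Fc receptor signaling, 4 were higher in NOD.B10 and 0 lower (median log2 fold change 0.07), where 9.11% and 8.22% of all genes were. The higher genes were the adaptor Lat (log2 fold change 1.19, adjusted p = 0.00133 in edgeR), the phospholipase Plcg1 (0.74, 0.00316), the kinase Fyn (0.55, 0.0063) and the PI3-kinase subunit Pik3cd (0.55, 0.0114). Lat, Plcg1 and Fyn are also known for T cell receptor signaling, and 10 of 12 T cell markers were higher in NOD.B10 (893 to 1208 CPM summed, against 432 to 575 CPM in BL/10). The part of T cells in these values was not tested. The kinase Syk, which docks on the phosphorylated FcRγ chain, had a log2 fold change of 0.37 (adjusted p = 0.143), and 26 of the 30 genes were not called.

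Of 20 inhibitory receptors and phosphatases listed, 19 were found in the table. Of these, 4 were higher and 2 lower (median log2 fold change 0.10), where 9.11% and 8.22% of all genes were. Inpp5d, the lipid phosphatase SHIP1 that FcγRIIB recruits, was at 246, 233 and 276 CPM in NOD.B10 and at 197, 189 and 200 CPM in BL/10 (log2 fold change 0.37, adjusted p = 0.0426 in edgeR). Its relative Inppl1 (SHIP2) rose by 0.94 (adjusted p = 0.00184), the lymphocyte receptor Cd5 by 1.57 (0.00185) and the adhesion receptor Pecam1 by 0.59 (0.0262), all as log2 fold changes. The lower genes were Ceacam1 (-1.99, 0.000418) and the C-type lectin receptor Clec4a2 (-0.63, 0.0476), both with ITIM motifs. The direction of the called genes was thus mixed. T cell markers were also higher in NOD.B10, and the part of T cells in the value of Cd5 was not tested. In the 6 fits that each left out a library, Inpp5d and Clec4a2 were called in 1 each and Pecam1 in 2, and Cd5, Inppl1 and Ceacam1 in all 6.

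Of the 10 genes, 5 lie within 317 kb of chromosome 1, in the order Fcrla, Fcgr2b, Fcgr4, Fcgr3 and Fcer1g. Among them Fcgr3 and Fcer1g, at the distal end, were lower and the other 3 were not called. Of 31 tested genes that start within 500 kb of these 5, 6 were higher and 3 lower (29.0%, against 17.3% of all genes). Their median log2 fold change was -0.04. Among them was Pcp4l1, lower in NOD.B10 (3.48 to 4.97 against 10.7 to 13.8 CPM, log2 fold change -1.61, adjusted p = 0.00118 in edgeR). Gm10522, a noncoding RNA gene that starts 5.40 kb from Fcgr2b, was higher (29 to 46 counts against 2 to 9, adjusted p = 0.00528). Itln1, which encodes an intelectin, a lectin that binds microbial sugars, had 32, 34 and 23 counts in NOD.B10 against 1, 0 and 0 in BL/10, at least 9.90-fold above the floor of 3 counts in a BL/10 library.

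**Figure D4:**
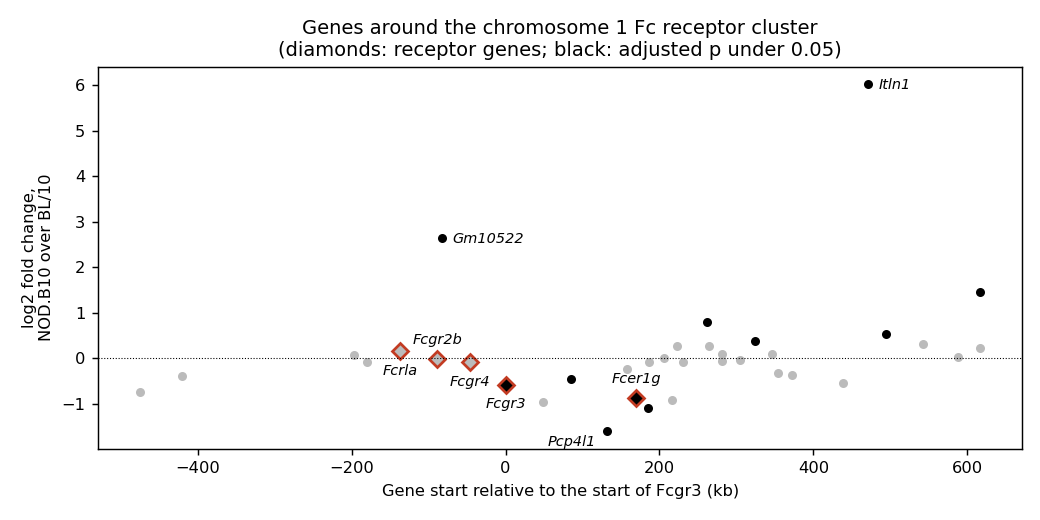
Log2 fold change, NOD.B10 over BL/10, of the tested genes that start within 500 kb of the 5 receptor genes on chromosome 1, against the distance of their start from that of Fcgr3. Diamonds with a red edge are the receptor genes, and black symbols had an adjusted p under 0.05. Called genes lie on both sides of 0, from Pcp4l1 at -1.61 to Itln1 at the top.

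On chromosome 3, Cd5l, a macrophage-secreted scavenger protein gene whose start lies 18.5 kb from Fcrl1, was lower in NOD.B10 (136, 115 and 88.4 against 344, 341 and 367 CPM, log2 fold change -1.63, adjusted p = 0.000666 in edgeR), opposite in sign to Fcrl1. Near Fcgr1, the noncoding RNA gene Gm42743 had 55, 58 and 77 counts in NOD.B10 against 0, 1 and 1 in BL/10, at least 20.9-fold above the floor, while Fcgr1, whose nearest end lies 13.2 kb from the start of Gm42743, was lower. The pseudogene 6330549D23Rik, 336 kb from Fcgr1, was lower as well (-1.31, adjusted p = 0.0264), a call that none of the 6 fits without a library kept. Near all 10 genes together, 23 of 144 tested neighbours were called (15.97%), a share close to the 17.3% of all genes.

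By the root mean square difference of centred log2 levels over the 6 libraries, the genes nearest to Fcer1g among 14208 compared were Slc16a3 and Trim2 (0.06 and 0.08). Nearest to Fcgr3 were Clec4a2 and Mfsd12 (0.05 and 0.07), and nearest to Fcgr1 were Dach1 and Rps4l (0.16 and 0.17). The likeness rests on 6 libraries and is given as a description.

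With only the libraries labelled 26 weeks (3 NOD.B10 and BL/10 replicate 1), none of the 10 genes was called in edgeR. The lone BL/10 library was assumed to vary like the NOD.B10 libraries. Fcer1g then had a log2 fold change of -0.64, Fcgr1 of -0.85 and Fcgr3 of -0.29. For these 3 genes BL/10 replicate 1 lay above every NOD.B10 library, so their direction was given beforehand and tests nothing. The same holds for Fcrl1 (0.28), for which BL/10 replicate 1 lay below every NOD.B10 library. Fcrl5 was at 0.19, and Fcmr and Fcrla turned to -0.33 and -0.34. Fcer1g and Fcgr1 were the 2 of the 10 genes with an unadjusted p under 0.05 in this fit.

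**Figure D5:**
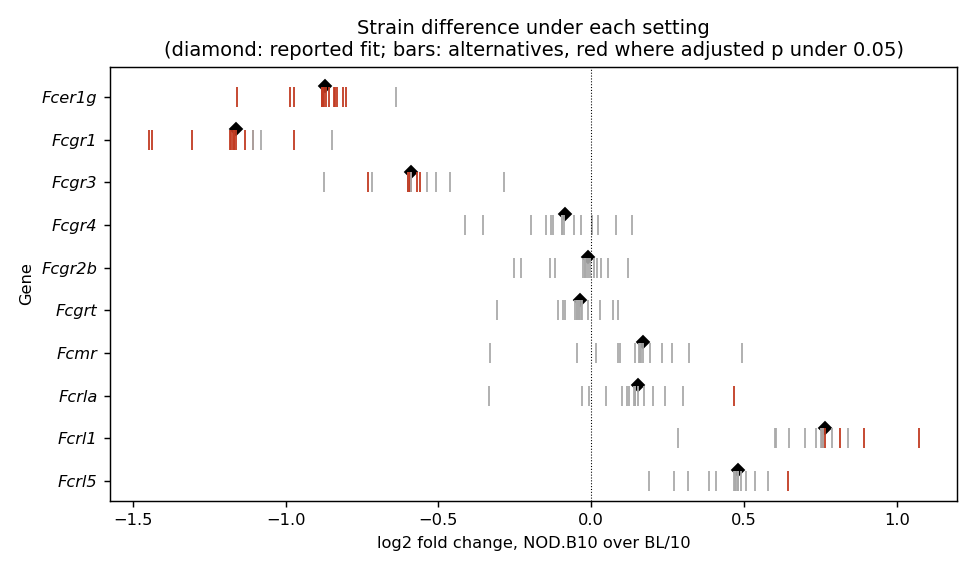
Log2 fold change of the 10 genes, NOD.B10 over BL/10, in the reported fit (black diamond) and in 17 alternative fits (bars, red where the adjusted p was under 0.05). All fits of Fcer1g, Fcgr1 and Fcgr3 lie below 0 and all fits of Fcrl1 and Fcrl5 above it, while the other 5 genes cross 0.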

How the data were processed

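Whole-spleen RNA (quality above 8.0) of female mice, in 3 biological replicates per strain, was sequenced as 50-base single-end reads. The authors deposited raw read counts per gene, made with featureCounts 1.5.1 from exons of Ensembl release 84 on GRCm38, with strand not used. The submitters' processing notes name HISAT2 2.0.5, whereas the study's methods name Tophat2. Symbols came from GENCODE M21 for 47224 of 47729 gene IDs. Libraries held 15662712 to 18298451 counts, and 3 counts, the floor used for genes at 0, are 0.164 to 0.192 CPM. This covers counting error only.

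Groups followed the column names and descriptions. Genes passing filterByExpr (15330) were normalised by TMM and tested with edgeR 4.0.16 (quasi-likelihood, R 4.3.3), with Benjamini-Hochberg adjustment over all of them and a threshold of 0.05. Tested on simulated data for this comparison (15345 genes, log2 fold changes of 1.5), it found 198 of 200 changed genes and called 8 unchanged ones. The receptor genes called here had smaller log2 fold changes. The simulation also drew every gene with the same dispersion and held no library that stood apart from its strain. It therefore does not show how often changes of the size of the receptor genes are found. Nor does it show how often unchanged genes are called in these data. Ratios were compared by exact permutation tests, two-sided. DESeq2 1.42.0, limma-voom (limma 3.58.1), other normalisations and filters, a replicate block, each library left out and the 26-week libraries alone were alternatives, and scaling to B cell or macrophage markers was added after seeing the data.

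The members and gene lists were chosen with earlier results of these data known. Besides the members and the other Fc-binding genes, the text names up to 4 called genes each way per signaling list and up to 3 each way within 500 kb of a member, by size of change, and for likeness the 2 nearest genes (log2 of CPM plus 0.5, mean of at least 1 CPM) to each called member. Syk was named after its values were seen. Lilrb4a, of the inhibitory list, had no match.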

Additional observations from a re-analysis of the deposited data

How the results depend on the processing

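The number of genes called, 2656, was 1001 with only the libraries labelled 26 weeks, 1689 with libraries scaled to B cell markers, 1035 at an adjusted p under 0.01, and 1269 to 4107 with each library left out (4107 without BL/10 replicate 1). Among the 10 receptor genes, 0 called higher became 1 (Fcrl1) under DESeq2, without immunoglobulin and hemoglobin genes, with no filter, under limma-voom and under the replicate block, and 0 to 3 with each library left out. The 3 called lower became 0 with the 26-week libraries, 1 at an adjusted p under 0.01, and 1 to 3 with each library left out (1 without BL/10 replicate 2 or without BL/10 replicate 3).

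The 2 called genes of the other Fc-binding list became 1 with at least 10 counts in every library and 2 to 4 with each library left out. The 4 of activating signaling became 2 with the 26-week libraries, 1 with B cell scaling and 3 to 7 with each library left out. The 6 of the inhibitory list became 3, 2 and 3 to 9, and 3 at an adjusted p under 0.01. The 23 neighbours became 8, 14 and 7 to 41, 15 with at least 10 counts in every library and 6 at an adjusted p under 0.01.

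Log2 fold changes near 0 changed sign in some settings. With the 26-week libraries, Fcgr4 was at 0.023, Fcgrt at 0.087, Fcmr at -0.33, Fcrla at -0.34, Fcer2a at -0.13 and Fcamr at -0.36. Under limma-voom, Fcgr2b was at 0.0088, Fcgr4 at 0.0016 and Pigr at 0.013, upper-quartile normalisation put Fcgr2b at 0.017, and B cell scaling put Fcrla at -0.0074. With each library left out, Fcgr2b ran from -0.14 to 0.12, Fcgr4 from -0.41 to 0.13, Fcgrt from -0.11 to 0.071, Fcmr from -0.047 to 0.49, Fcrla from -0.030 to 0.47 and Pigr from -0.33 to 0.23. The cause of these changes was not tested.

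The strains share replicate numbers. Deviations of same-numbered libraries correlated at 0.03, 0.17 and -0.08, and those of other pairs at -0.18 to 0.16. With 3 libraries per strain this gave no clear sign of pairing and cannot exclude it. The replicate block called 2889 genes, with adjusted p = 0.0721 for Fcgr3 and 0.0296 for Fcrl1 in edgeR, and 2 receptor genes lower. Fcrlb, Fcrl6 and Fcrls, at a few counts, were left out by the filter. With no filter their adjusted p was 0.0566, 0.501 and 0.605 in edgeR, and Fcrlb, which passed the filter in some fits without a library, was called without BL/10 replicate 2 (-2.22, adjusted p = 0.0358).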
